A study of Pinus armandii with 6 samples.

Results

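The genes described here encode the proteins that coat oil bodies and the enzymes that build, remodel and break down glycerolipids in the seed kernel of Pinus armandii, the Chinese white pine. They are 181 of the 65117 unigenes, or assembled transcript sequences, in the deposited table. Of these, 9 were taken because their best database hit names an oleosin, caleosin, peroxygenase, lipid droplet, oil body or seipin protein. The other 172 were taken because their KEGG pathway is glycerolipid or glycerophospholipid metabolism and is not also galactose metabolism, fatty acid degradation, linoleic or linolenic acid metabolism, or globo-series glycosphingolipid synthesis. The rule uses no measured value, but it was set with earlier results of these data known.

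RNA of the kernels was sequenced at 2 harvests, September (3 libraries) and August (3 libraries). The labels give the species, the tissue and the month, and no tree, stand or seed stage. Libraries within a month are labelled as biological replicates, but nothing says that they came from separate trees, and a p-value therefore reflects only how much these libraries varied, which may be technical. Levels are given as FPKM, which scales counts to transcript length and library size, in the order of the replicate numbers.

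Seeds store oil as triacylglycerol in oil bodies, droplets with a single phospholipid layer into which oleosins, caleosins and steroleosins are set. In textbook accounts, triacylglycerol is made in the endoplasmic reticulum from glycerol-3-phosphate, which receives an acyl group, then a further one to give phosphatidic acid, loses its phosphate to give diacylglycerol, and takes a last acyl group from acyl-CoA or from a phospholipid. Phosphatidic acid and diacylglycerol are also the branch points to phospholipids and galactolipids, and phospholipases return both from membranes. In pine seeds most of the oil lies in the megagametophyte, the storage tissue around the embryo, and germinating seedlings draw on it.

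Libraries held 12849649 to 17379628 counts, and the members took 0.651%, 0.656% and 0.637% of them in September against 0.823%, 0.871% and 0.817% in August. Every library held transcripts with best hits to seed storage proteins (vicilin, legumin, globulin and 2S albumin) and to desiccation proteins, though not each such unigene was counted in all 6 libraries. Summed vicilin stood at 286 to 299 FPKM in September and at 170.0 to 172 FPKM in August, whereas late embryogenesis abundant proteins stood at 912 to 954 FPKM in September and at 1093 to 1239 FPKM in August. The second August library stood apart. It alone held counts for 30 members (16.6% of the 181), with 751 counts in all, and 15 of the 30 had at least 10 counts there. In each other library 0 to 4 members were counted alone, none with 10 counts. Of the 30, 22 had a best hit in cork oak or hornbeam, against 7 of the 151 other members. This was not particular to the members: of 1744 unigenes with a best hit that were counted only in that library, 1243 had such a hit. Among all unigenes, 3942 (6.05%) were counted only in that library, 1042 of them with at least 10 counts, and they took 0.629% of its counts. Such members are not called below, because a unigene seen in 1 library did not pass the filter on low counts, and the counts of calls over all members are also given without that library. The source of these counts was not tested.

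**Figure D1:**
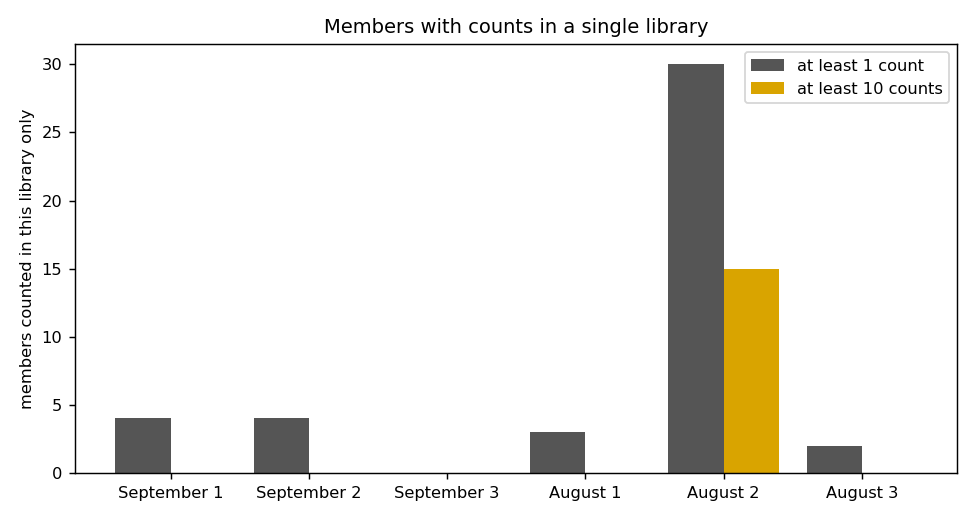
Members counted in a single library. Bars give the number of members with counts in that library and none in the other 5, grey for at least 1 count and yellow for at least 10 counts. The second August library stands at 30 and 15, and each other library at 0 to 4 and 0.

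Months were compared by edgeR's quasi-likelihood test on the estimated counts with Benjamini-Hochberg adjustment over 23216 tested unigenes, at an adjusted p under 0.05. Fold changes are log2 values of September over August. Of the 181 members, 102 passed the filter and were tested. Of these 102, 26 rose (25.5%, where 35.4% of all tested unigenes rose), 39 fell (38.2%, where 32.5% of all fell) and 37 did not pass. In all 65 passed, where 67.8% of all tested unigenes did. Without the second August library 21 rose and 40 fell of 103 tested. Changes of at least 2-fold were 13 rises and 13 falls, or 12.75% of the tested members each, while 24.3% of all tested unigenes rose and 12.4% fell by that much. The libraries of the months did not overlap in 76 members (74.5%), near the 72.9% of all tested unigenes. The median log2 fold change was -0.11 over the tested members, 0.03 over all tested unigenes and -0.06 over tested unigenes with any KEGG pathway, of which 31.9% rose and 37.0% fell. Set beside these backgrounds, the members rose in a smaller share than all tested unigenes and fell in a share near that of KEGG-annotated ones. No test of these shares was made. Counts of calls by role, given below, stand beside the same 35.4% and 32.5% of all tested unigenes. They were not tested either.

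Summed over all 181 members, the level was 2567, 2576 and 2506 FPKM in September libraries and 3095, 3328 and 3077 FPKM in August libraries. The sum was lower in every September library, with a ratio of 0.805 of the monthly means. Oil body proteins made up 18.8% of that sum in September and 23.0% in August. Phospholipases and phosphodiesterases made up 27.0% in September and 17.5% in August. Most of the rise in their summed FPKM lay in unigenes of the phospholipase C NPC2, as given below. The median FPKM over the libraries was 11.4 for tested members and 4.82 for all tested unigenes. The median coefficient of variation between libraries of a month was 7.90% in September and 7.74% in August. It covers tested members with a mean of 1 FPKM or more in that month, 96 in September and 92 in August. In bulk kernels, fewer cells of a type and less RNA per cell cannot be told apart, so a lower level here may be either.

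**Figure D2:**
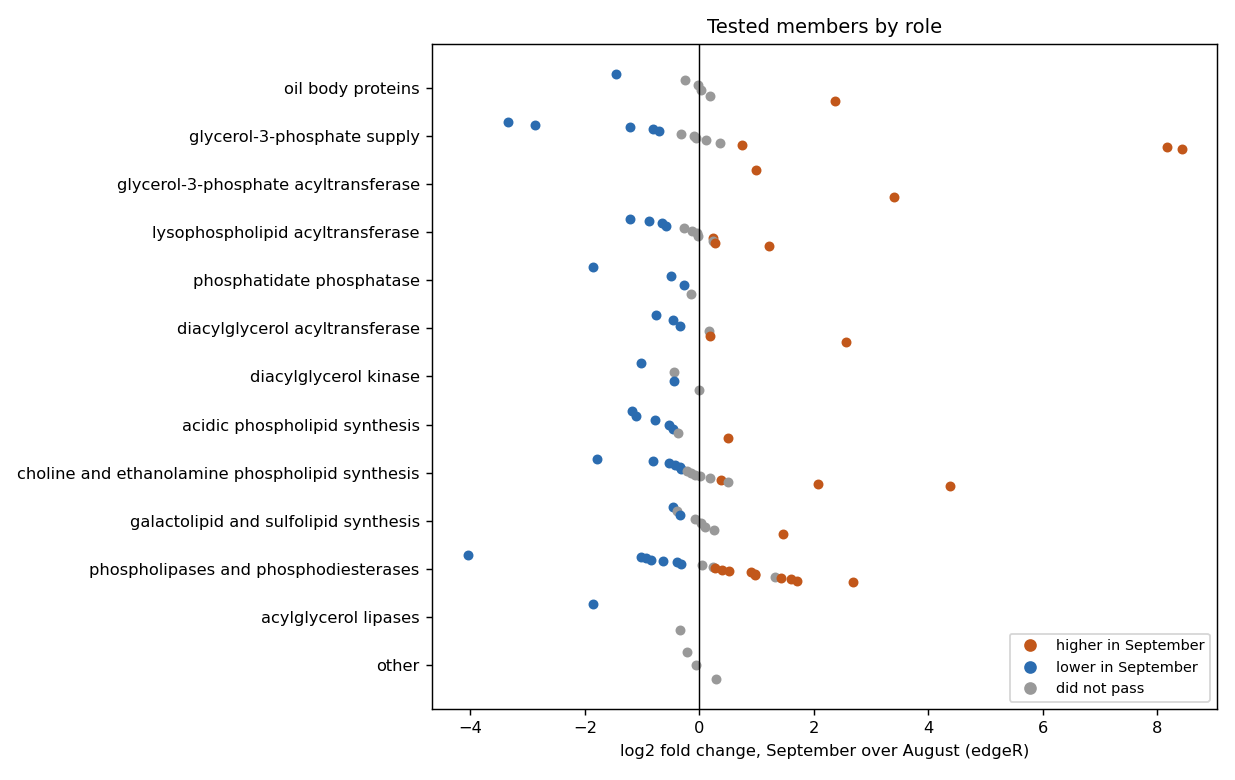
Log2 fold change, September over August, of the 102 tested members by role. Each point is a unigene, orange where it rose, blue where it fell and grey where it did not pass at an adjusted p under 0.05. The points near 8 are Gk and Gpd2, which had 0 and 1 counts in all August libraries together, so their fitted values are no measure of fold. Phosphatidate phosphatases (4 tested), diacylglycerol kinases (4 tested), acylglycerol lipases (2 tested) and the role named other (3 tested) hold no orange point. The phospholipases and phosphodiesterases hold 10 among 20 tested, where 35.4% of all tested unigenes rose.

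Oil body proteins were present at high levels in both months, and most did not pass the test. Of 6 tested members 1 fell, 1 rose and 4 did not pass. The member with the highest FPKM averaged over all 6 libraries, though not over the September libraries alone, was an oleosin (Unigene0045277, symbol At4g25140, best hit in Pinus elliottii). It had 144, 160.0 and 141 FPKM in September libraries and 396, 426 and 397 FPKM in August libraries. Every September library lay below every August library. This oleosin, a hairpin protein that keeps oil bodies from fusing, fell by 1.45 on the log2 scale (SE 0.0646, adjusted p = 1.02e-07). Its ratio of counts to FPKM implies a length of 5135 bases, against 1009 bases for the other oleosin, and FPKM divides by that length. Oleosin L (Unigene0075045, best hit in Pinus massoniana) had 104, 122 and 94.4 FPKM in September libraries and 112, 153 and 117 FPKM in August libraries. The months overlapped, and the log2 fold change of -0.25 (SE 0.125) did not pass (adjusted p = 0.104). It passed as lower without the first August library (-0.36, adjusted p = 0.0430) and without the second September library (-0.35, adjusted p = 0.0389).

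Caleosins bind calcium on the oil body surface and act as peroxygenases. The more abundant caleosin (SOP1, Unigene0069222) had 99.6, 95.1 and 93.7 FPKM in September libraries and 99.6, 98.5 and 85.4 FPKM in August libraries. These ranges overlapped, with a log2 fold change of 0.03 (SE 0.0700, adjusted p = 0.723). A caleosin unigene with the same best hit (SOP1, Unigene0069223) had 23.5, 26.9 and 27.4 FPKM in September libraries and 5.13, 5.36 and 4.69 FPKM in August libraries. It rose by 2.36 (SE 0.0992, adjusted p = 7.87e-08). Because reads can be divided between unigenes of one hit, their sum was tested too. It stood at 123, 122 and 121 FPKM in September against 105, 104 and 90.1 FPKM in August, a rise of 0.26 on the log2 scale (adjusted p = 0.00541).

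The steroleosin among the members (HSD5, Unigene0032809), a sterol dehydrogenase of the oil body coat, had 71.1, 80.2 and 68.8 FPKM in September libraries and 63.6, 71.8 and 59.5 FPKM in August libraries. The months overlapped in part, and the log2 fold change of 0.18 (SE 0.0823) did not pass (adjusted p = 0.0755). It passed as higher without the second August library (0.24, adjusted p = 0.0297). OBAP1A (Unigene0072396), an oil body-associated protein whose family is needed for normal oil bodies in Arabidopsis, had 28.7, 31.4 and 27.0 FPKM in September libraries and 27.9, 37.6 and 23.7 FPKM in August libraries. Its August values enclosed the September ones (log2 fold change -0.03, adjusted p = 0.870). The 3 untested members, a pair of peroxygenase 4 unigenes and a caleosin with an algal best hit, had 0 counts in September and 1 to 6 counts in August. Summed over the 9 members the coat proteins stood at 471, 515 and 452 FPKM in September libraries and at 705, 794 and 687 FPKM in August libraries, a ratio of 0.658. This sum is not the whole coat, as it leaves out unigenes outside the rule, such as HSD5 Unigene0054997, CLO and SOP1 Unigene0005403, given below. Without the oleosin Unigene0045277 the sum was 327, 355 and 311 FPKM in September libraries and 309, 368 and 290.2 FPKM in August libraries, which overlap.

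**Figure D3:**
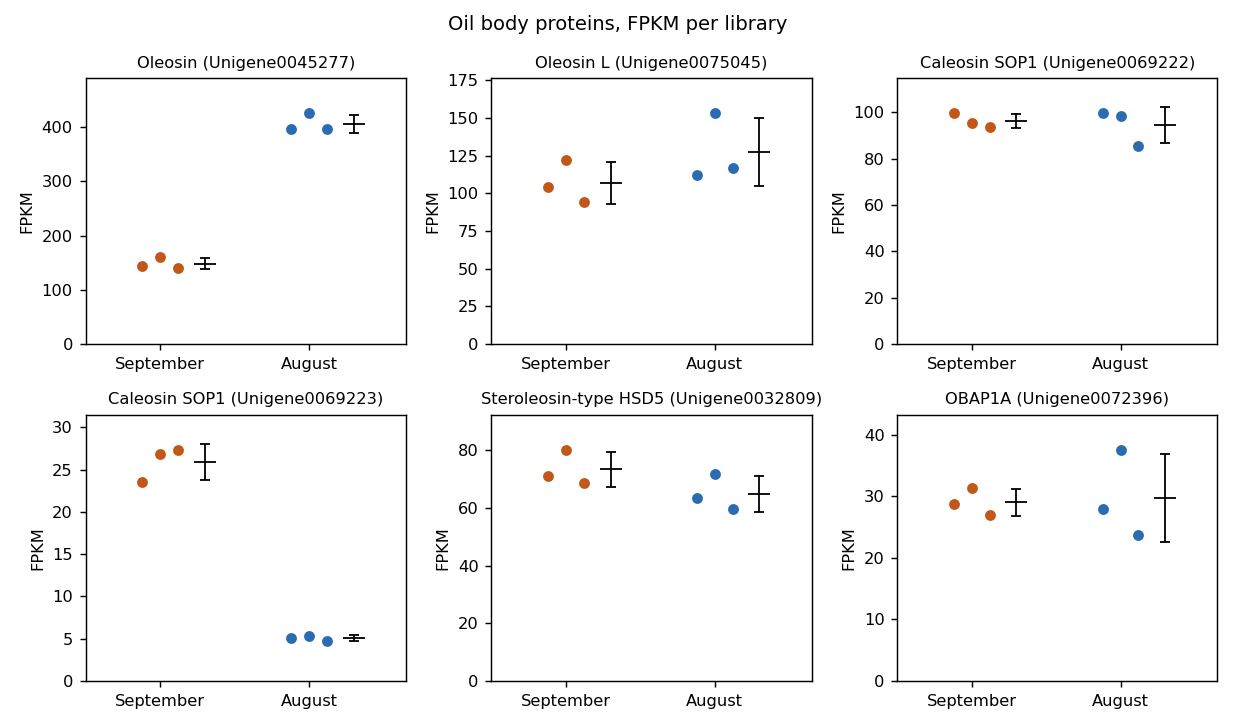
FPKM of the 6 tested oil body proteins in each library. Points are libraries, orange for September and blue for August, and the bar beside them is the mean with its SD (n = 3). The oleosin Unigene0045277 sits at 141 to 160.0 in September, below 396 to 426 in August, and the caleosin Unigene0069223 sits higher in September, while the other 4 overlap.

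Glycerol-3-phosphate supply held 31 members, of which 13 were tested, 3 rose, 5 fell and 5 did not pass. The NAD-dependent glycerol-3-phosphate dehydrogenases, which make the glycerol backbone from dihydroxyacetone phosphate, had 3 tested unigenes, of which 2 fell and 1 did not pass (Os07g0229800, Unigene0023637, log2 fold change -0.31, adjusted p = 0.516). The most abundant of them (Os01g0939600, Unigene0029892) had 42.4, 42.4 and 44.7 FPKM in September libraries and 76.3, 79.3 and 71.3 FPKM in August libraries, and fell by 0.80 (SE 0.0640, adjusted p = 3.03e-06). A further unigene of that symbol (Unigene0029889) had 4.27, 3.86 and 3.49 FPKM in September libraries and 26.8, 30.0 and 28.3 FPKM in August libraries. It fell by 2.86 (SE 0.101, adjusted p = 2.71e-08), with no overlap between months. The summed level of the 6 unigenes of this enzyme was 47.7, 47.9 and 49.5 FPKM in September against 104, 112 and 101 FPKM in August.

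Other enzymes of the glycerol branch behaved differently from one another. GLYK (Unigene0018713), glycerate kinase of photorespiration, had 55.3, 53.4 and 55.6 FPKM in September libraries and 89.3, 89.0 and 91.7 FPKM in August libraries, a fall of 0.71 (adjusted p = 2.03e-06). AKR4C10 (Unigene0012926), an aldo-keto reductase, averaged 7.09 ± 0.753 FPKM in September and 16.5 ± 0.193 FPKM in August (SD, n = 3 each), a fall of 1.21 (adjusted p = 5.01e-06). GLPK (Unigene0003555), the glycerol kinase that returns free glycerol to the pathway, had 29.3, 26.4 and 28.4 FPKM in September libraries and 29.6, 26.7 and 31.7 FPKM in August libraries. The months overlapped and its log2 fold change was -0.06 (adjusted p = 0.518). SDP6 (Unigene0053226), the mitochondrial glycerol-3-phosphate dehydrogenase that Arabidopsis seedlings need to use glycerol from oil, had 15.4 to 16.0 FPKM in September and 16.3 to 17.2 FPKM in August (-0.09, adjusted p = 0.278).

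Some unigenes of this branch were counted almost wholly in 1 month, and those named here have best hits outside the gymnosperms. Gk (Unigene0022103), read as a glycerol kinase with a best hit in cork oak, had 33, 47 and 28 counts in September libraries and 0 in each August library. With a floor of 3 counts over the August libraries it was at least 36.3-fold higher in September. Gpd2 (Unigene0058175), annotated as a mitochondrial glycerol-3-phosphate dehydrogenase, had 469 counts over the September libraries and 1 count over the August libraries, a 473-fold ratio with an exact 95% counting interval of 84.5 to 18730. Another glycerol kinase (gk, Unigene0066500) had 811 counts in the second August library, 1 in the first and 0 in the remaining 4. Of the 18 untested members of this role, 5 are NADP-dependent glycerol dehydrogenases, and the summed level of that enzyme in the second August library was 25.0 FPKM, against at most 0.430 FPKM in any other library.

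Glycerol-3-phosphate acyltransferases start the assembly of glycerolipids. Both tested members of 7 rose, where 35.4% of all tested unigenes rose. GPAT6 (Unigene0002890), whose Arabidopsis namesake makes monoacylglycerols for cutin, had 8.20, 9.14 and 8.35 FPKM in September libraries and 1.03, 0.594 and 0.785 FPKM in August libraries. All September libraries lay far above the August ones, a rise of 3.40 (SE 0.188, adjusted p = 3.05e-07). ATS1;2 (Unigene0016413), the plastid form, had 8.34, 7.44 and 8.69 FPKM in September libraries and 3.89, 3.90 and 4.52 FPKM in August libraries, and rose by 0.99 (SE 0.126, adjusted p = 7.09e-05). GPAT9 (Unigene0070083), named for the form that serves oil synthesis in the endoplasmic reticulum of Arabidopsis, had 4, 2 and 2 counts in September libraries and 9, 2 and 6 counts in August libraries. It was too low to test, and no difference was detectable at this depth.

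Lysophospholipid acyltransferases add the next acyl group or re-acylate membrane lipids. Of 12 tested members 3 rose, 4 fell and 5 did not pass, and their sum stood at 137, 135 and 135 FPKM in September libraries and at 171, 171 and 173 FPKM in August libraries. LPAT2 (Unigene0030008), a lysophosphatidic acid acyltransferase of the endoplasmic reticulum, had 31.3, 29.1 and 31.0 FPKM in September libraries and 55.4, 56.8 and 56.6 FPKM in August libraries. It fell by 0.88 (SE 0.0648, adjusted p = 1.80e-06), and by 0.65 when the unigenes of its best hit were summed (adjusted p = 1.18e-05). Taz (Unigene0028030), tafazzin, which remodels cardiolipin in mitochondria, averaged 5.35 ± 0.223 FPKM in September and 12.4 ± 1.08 FPKM in August (SD, n = 3 each) and fell by 1.21 (adjusted p = 3.38e-06). LPEAT1 (Unigene0017251), a lysophosphatidylethanolamine acyltransferase, also fell, by 0.66 (adjusted p = 1.77e-05).

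Of the 3 rises in this role 2 were small and were lost when some single libraries were left out. LPEAT2 (Unigene0055930), the most abundant member by CPM (counts scaled to library size only), had 24.6, 26.8 and 27.7 FPKM in September libraries and 23.6, 22.3 and 21.5 FPKM in August libraries. Its rise of 0.24 (SE 0.0706, adjusted p = 0.0133) was lost without the second August, the third August or the third September library (adjusted p = 0.0529 to 0.0766). LPAT5 unigenes moved apart: Unigene0056287 rose by 0.27 (adjusted p = 0.0222) and Unigene0015647 fell by 0.58 (adjusted p = 0.00484). The rise was lost when any of 4 libraries was left out, the first or the second August one, or the first or the third September one (adjusted p = 0.0525 to 0.0835). They share a best hit, and summed they gave 0.09 (adjusted p = 0.316). The larger rise was that of PLSC (Unigene0069110), a lysophosphatidic acid acyltransferase, by 1.22 (adjusted p = 0.00173), with 3.24, 3.17 and 2.16 FPKM in September libraries and 1.00, 1.10 and 1.61 FPKM in August libraries.

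Phosphatidate phosphatases, which release the diacylglycerol used for oil and for membrane lipids, were lower or did not pass. Of 4 tested members 3 fell, where 32.5% of all tested unigenes fell. LPP2 (Unigene0051028), a membrane-bound lipid phosphate phosphatase, had 6.86, 6.60 and 5.75 FPKM in September libraries and 21.0, 26.2 and 23.3 FPKM in August libraries. It fell by 1.87 (SE 0.115, adjusted p = 6.00e-07). A further LPP2 unigene (Unigene0012670) had 27.9, 25.8 and 26.1 FPKM in September libraries and 38.0, 37.4 and 36.9 FPKM in August libraries, a fall of 0.49 (adjusted p = 9.51e-05). PAH2 (Unigene0033827), a soluble lipin-type phosphatase, fell by 0.26 (SE 0.0604, adjusted p = 0.00326), with 10.6, 10.7 and 10.7 FPKM in September libraries and 13.4, 12.4 and 12.5 FPKM in August libraries. The other PAH2 unigene (Unigene0022042) overlapped between months (-0.15, adjusted p = 0.177).

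Among transcripts for the last step, transfer of an acyl group to diacylglycerol, those of PDAT1, whose enzyme takes that group from phosphatidylcholine, had the highest FPKM. Of 6 tested members 3 fell, 2 rose and 1 did not pass. PDAT1 (Unigene0043175) had 158, 164 and 162 FPKM in September libraries and 255, 292 and 270.1 FPKM in August libraries. It fell by 0.75 (SE 0.0616, adjusted p = 3.80e-06), with every September library below every August one. The other PDAT1 unigene (Unigene0071050) had 53.4, 56.7 and 53.1 FPKM in September libraries and 45.6, 48.1 and 50.5 FPKM in August libraries. Its rise of 0.18 (SE 0.0585, adjusted p = 0.0183) was lost without the first August, the second August or the second September library (adjusted p = 0.0598 to 0.109). The PDAT1 unigenes together stood at 211, 221 and 215 FPKM in September and at 301, 340 and 321 FPKM in August.

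Acyl-CoA-dependent diacylglycerol acyltransferases had lower FPKM than either PDAT1 unigene. DGAT1 (Unigene0049427), the main such enzyme in Arabidopsis seeds, had 7.43, 7.71 and 8.31 FPKM in September libraries and 11.7, 11.4 and 9.25 FPKM in August libraries, and fell by 0.46 (SE 0.124, adjusted p = 0.00778). DGAT2D (Unigene0036577) had 16.2, 14.4 and 15.9 FPKM in September libraries and 17.1, 21.9 and 19.8 FPKM in August libraries. Its fall of 0.33 (SE 0.111, adjusted p = 0.0216) was lost without the second August or the second September library (adjusted p = 0.0659 and 0.0772), and when the unigenes of its best hit were summed (-0.21, adjusted p = 0.0832). DGAT3 (Unigene0074795), a soluble form, had 5.73, 6.14 and 4.40 FPKM in September libraries and 1.02, 0.793 and 0.928 FPKM in August libraries. It rose by 2.56, the one rise of over 2-fold among the 6 members of this role (SE 0.228, adjusted p = 6.49e-06).

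**Figure D4:**
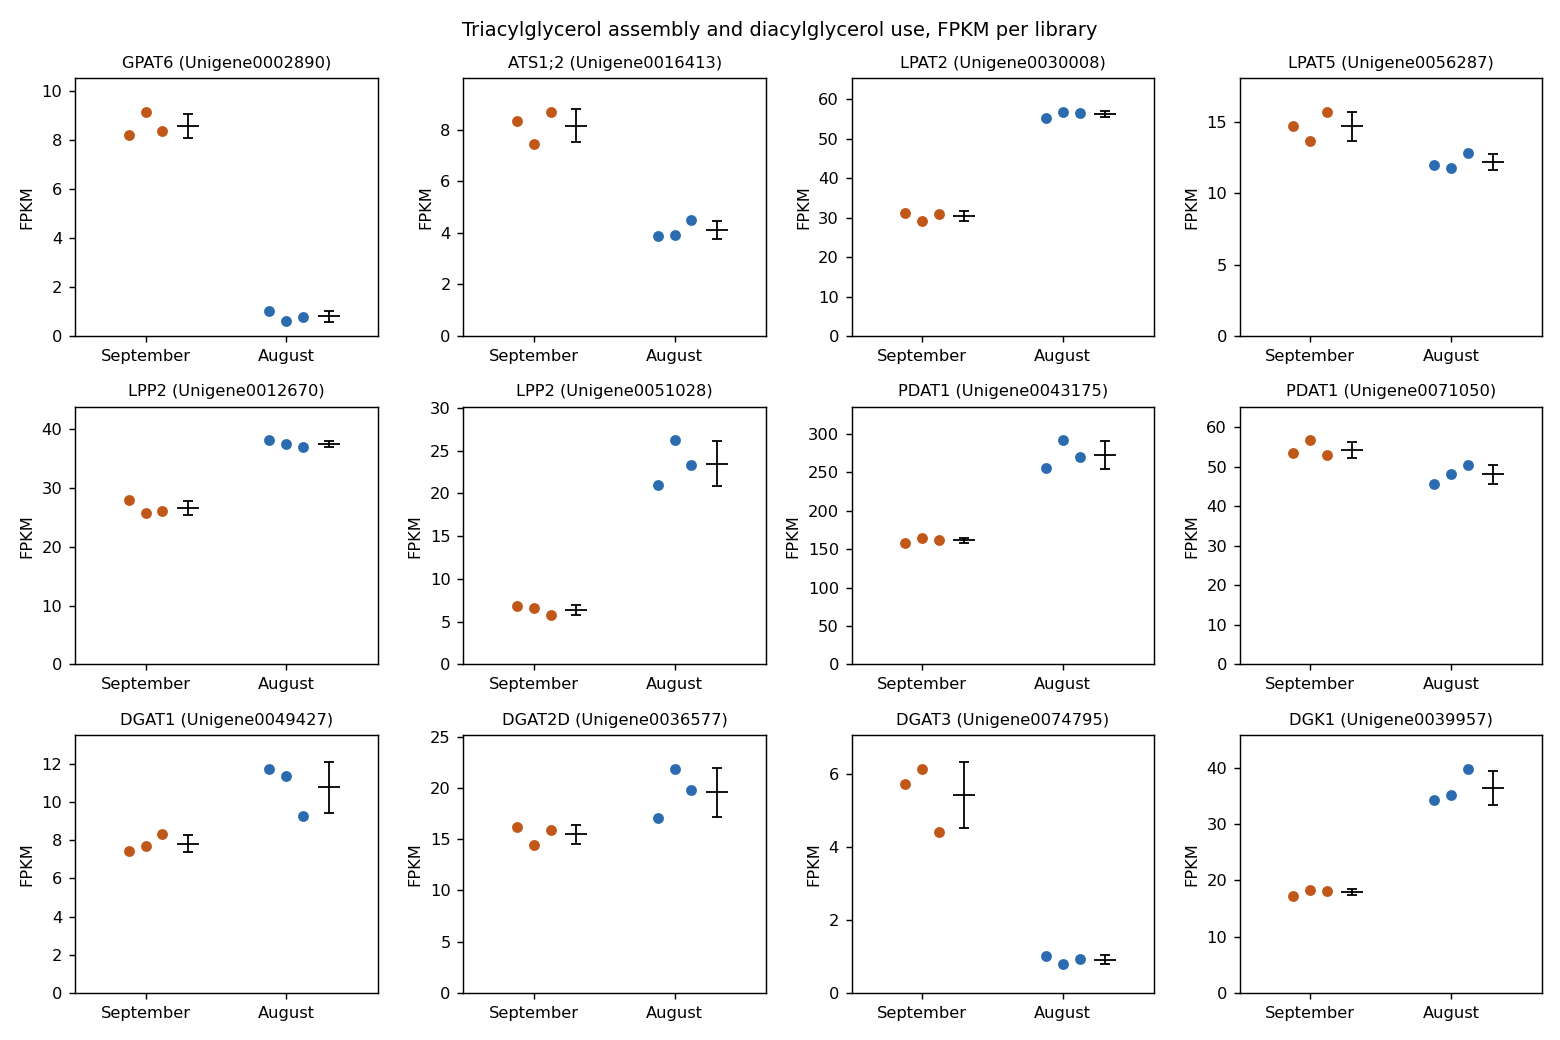
FPKM per library of 11 members placed by enzyme in roles between glycerol-3-phosphate and triacylglycerol, and of a diacylglycerol kinase. These roles include a plastid acyltransferase and GPAT6, whose Arabidopsis namesake makes monoacylglycerols for cutin. Placement in a role does not show that a member serves oil synthesis. Points are libraries, orange for September and blue for August, beside the mean and SD (n = 3 each). The abundant PDAT1 Unigene0043175 lies at 158 to 164 in September and at 255 to 292 in August, while GPAT6 and DGAT3 lie higher in September.

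Diacylglycerol kinases turn diacylglycerol back into phosphatidic acid. Of 4 tested members 2 fell and 2 did not pass. DGK1 (Unigene0039957) had 17.2, 18.3 and 18.1 FPKM in September libraries and 34.3, 35.1 and 39.8 FPKM in August libraries, a fall of 1.02 (SE 0.0700, adjusted p = 1.15e-06). DGK5 (Unigene0071202) fell by 0.45 (adjusted p = 0.0102). A further DGK5 unigene (Unigene0071204) had a log2 fold change of -0.45 that did not pass (adjusted p = 0.0527), although it did without the second August (adjusted p = 0.0424) or the first September library (adjusted p = 0.0256). DGK7 (Unigene0005722) had -0.01 (adjusted p = 0.906).

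Enzymes that make the acidic phospholipids from CDP-diacylglycerol were lower in 5 of 7 tested members, and 1 rose. Over all tested unigenes 32.5% fell and 35.4% rose. CDS1 (Unigene0039909), CDP-diacylglycerol synthase at the entry to the branch, had 10.6, 10.6 and 10.1 FPKM in September libraries and 21.5, 25.2 and 24.6 FPKM in August libraries. It fell by 1.18 (SE 0.0870, adjusted p = 1.82e-06). PIS2 (Unigene0015742), phosphatidylinositol synthase, had 13.5, 15.9 and 14.5 FPKM in September libraries and 29.0, 33.4 and 33.1 FPKM in August libraries, a fall of 1.12 (adjusted p = 6.73e-06). PGPS1 (Unigene0024552), which makes the precursor of phosphatidylglycerol, had 32.9, 38.8 and 34.4 FPKM in September libraries and 49.2, 50.4 and 53.3 FPKM in August libraries, and fell by 0.52 (adjusted p = 0.000178). In these 3 enzymes the months did not overlap.

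Cardiolipin synthase (CLS, Unigene0048050), which acts in mitochondria, averaged 10.9 ± 0.731 FPKM in September and 18.7 ± 1.41 FPKM in August (SD, n = 3 each) and fell by 0.77 (adjusted p = 3.37e-05). Phosphatidylserine synthase (PSS2, Unigene0070998) averaged 16.7 ± 1.01 FPKM in September and 23.0 ± 1.25 FPKM in August and fell by 0.46 (adjusted p = 0.000634). The one rise was CDS4 (Unigene0043397), named for a plastid CDP-diacylglycerol synthase, which had 3.75, 3.69 and 3.49 FPKM in September libraries and 2.44, 2.37 and 2.97 FPKM in August libraries. That rise of 0.50 (adjusted p = 0.0145) was lost without the first or the second August library (adjusted p = 0.0513 and 0.0532). Summed over the role, the level was 93.6, 103 and 97.2 FPKM in September and 149, 167 and 163 FPKM in August.

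Enzymes of phosphatidylcholine and phosphatidylethanolamine synthesis made up 28 members, of which 15 were tested, 3 rose, 6 fell and 6 did not pass. The abundant cytidylyl transferases, which set the pace of both branches, were lower. CCT2 (Unigene0004609), for choline, had 142, 152 and 149 FPKM in September libraries and 187, 187 and 179.7 FPKM in August libraries, a fall of 0.32 (SE 0.0537, adjusted p = 0.000472). PECT1 (Unigene0050468), for ethanolamine, had 111.2, 110.5 and 112 FPKM in September libraries and 152, 152 and 144 FPKM in August libraries, a fall of 0.42 (SE 0.0521, adjusted p = 6.05e-05). SDC1 (Unigene0053874), the serine decarboxylase that makes ethanolamine, had 42.3, 49.7 and 49.1 FPKM in September libraries and 87.1, 78.7 and 83.1 FPKM in August libraries and fell by 0.81 (SE 0.0732, adjusted p = 6.87e-06). The ethanolamine kinase EMB1187 (Unigene0030393) fell by 0.53 (adjusted p = 0.000835).

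Copies of the same enzyme differed in direction. A second CCT2 unigene (Unigene0001357) had 9.28, 7.13 and 6.99 FPKM in September libraries and 1.57, 2.20 and 1.80 FPKM in August libraries. It rose by 2.08 (SE 0.157, adjusted p = 2.11e-06), while Unigene0075054 of that symbol fell by 0.34 (adjusted p = 0.00234). Among choline kinases under the symbol At1g74320, Unigene0006253 had 8.06, 7.08 and 4.99 FPKM in September libraries and 0.320, 0.316 and 0.328 FPKM in August libraries, and rose by 4.38 (SE 0.248, adjusted p = 3.60e-07). With the other unigenes of its best hit summed, the rise was 2.88 (adjusted p = 8.26e-07). Unigene0014015 of that symbol had 6.36, 5.55 and 4.88 FPKM in September libraries and 19.5, 19.3 and 19.4 FPKM in August libraries, a fall of 1.79 (SE 0.122, adjusted p = 1.10e-06). A further choline kinase (Unigene0006250) rose by 0.38 (adjusted p = 0.0493), a call lost when any of the 6 libraries was left out (adjusted p = 0.0616 to 0.165). The summed level of choline kinases was 19.6, 19.0 and 16.2 FPKM in September and 23.1, 24.8 and 23.4 FPKM in August.

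Among all members, 21 symbols were carried by more than 1 tested unigene, and in 7 of these at least 1 unigene rose and at least 1 fell. These were At1g74320, CCT2, LPAT5, NPC1, PDAT1, PLD1 and PLDBETA1, although some of those calls were lost without a library or on summing unigenes of a shared hit, as given beside each. The same count over all symbols was not made, and 35.4% of all tested unigenes rose and 32.5% fell. So 7 of 21 is not shown to be particular to these members.

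Galactolipid and sulfolipid enzymes, which build plastid membranes, had 8 tested members, of which 1 rose, 2 fell and 5 did not pass. Their summed level was 108, 112 and 110.6 FPKM in September and 110.0, 106 and 116 FPKM in August, a ratio of 0.997. SFR2 (Unigene0037183), a galactosyltransferase that rebuilds galactolipids in freezing or dehydrated Arabidopsis, had 16.1, 13.3 and 16.1 FPKM in September libraries and 6.24, 5.38 and 5.002 FPKM in August libraries. It rose by 1.45 (SE 0.125, adjusted p = 5.13e-06). The more abundant SFR2 unigene (Unigene0045855) had 37.6, 44.3 and 36.8 FPKM in September libraries and 37.3, 37.3 and 42.9 FPKM in August libraries, with overlap and a log2 fold change of 0.02 (adjusted p = 0.838). DGD1 (Unigene0032574), which makes digalactosyldiacylglycerol, had 24.5, 26.3 and 28.6 FPKM in September libraries and 35.0, 34.5 and 39.6 FPKM in August libraries, a fall of 0.45 (adjusted p = 0.000591). UGP3 (Unigene0003897), a plastid UDP-glucose pyrophosphorylase of sulfolipid synthesis, fell by 0.34 (adjusted p = 0.0222). Its call was lost without the third August, the second September or the third September library (adjusted p = 0.0513 to 0.0806).

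Phospholipases and phosphodiesterases, which cleave membrane lipids, stood higher in September in summed level, with 723, 666 and 675 FPKM against 558, 565 and 537 FPKM in August. Of 20 tested members 10 rose, 7 fell and 3 did not pass, where 35.4% of all tested unigenes rose and 32.5% fell. NPC2 (Unigene0040623), a non-specific phospholipase C that releases diacylglycerol from phospholipids, had 200.4, 182 and 194 FPKM in September libraries and 67.0, 62.3 and 61.6 FPKM in August libraries. It rose by 1.60 (SE 0.0629, adjusted p = 5.36e-08), with a gap between the months wider than the spread within either. The role's summed level averaged 688 FPKM in September and 553.5 FPKM in August. Of this, NPC2 unigenes held 193.9 FPKM in September and 64.5 FPKM in August, so most of the gap lay in NPC2. NPC6 (Unigene0032400), near NPC2 in September and above it in August, had 200.3, 175 and 171 FPKM in September libraries and 172, 191 and 168 FPKM in August libraries. These overlapped (log2 fold change 0.05, SE 0.0771, adjusted p = 0.618). NPC1 unigenes parted, Unigene0063042 falling by 0.32 (28.1, 29.0 and 27.2 FPKM in September libraries, 36.8, 35.4 and 33.4 FPKM in August libraries, adjusted p = 0.00167) and the scarcer Unigene0040624 rising by 1.42 (adjusted p = 0.000287).

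Phospholipase D unigenes, whose enzymes release phosphatidic acid, moved both ways: of 11 tested 5 rose, 4 fell and 2 did not pass. The most abundant (PLD1, Unigene0013622) had 73.9, 66.2 and 69.3 FPKM in September libraries and 43.1, 32.4 and 31.2 FPKM in August libraries and rose by 0.98 (SE 0.113, adjusted p = 3.78e-05). PLD1 Unigene0070820 had 31.9, 29.8 and 26.5 FPKM in September libraries and 37.6, 39.9 and 38.9 FPKM in August libraries and fell by 0.39 (SE 0.0752, adjusted p = 0.000992). The pair shares a best hit, and summed it rose by 0.51 (adjusted p = 0.000149). The other PLD1 unigenes also parted: Unigene0001269 rose by 0.40 (adjusted p = 0.00347), and the scarce Unigene0030867 fell by 4.04 (SE 0.647, adjusted p = 0.000324), with 0, 4 and 1 counts in September libraries and 21, 26 and 41 counts in August libraries. PLDDELTA (Unigene0001335) rose by 0.97 (adjusted p = 2.89e-05) and pldZ (Unigene0004531) by 0.89 (adjusted p = 0.000170), and PLDZETA1 (Unigene0050292) fell by 0.84 (adjusted p = 0.000116). The PLDBETA1 calls, a rise of 0.27 (Unigene0053664, adjusted p = 0.0365) and a fall of 1.02 (Unigene0068130, adjusted p = 0.0475), were not stable. The rise was lost without any library but the third September one (adjusted p = 0.0722 to 0.133), and the fall without the first or second library of either month (adjusted p = 0.101 to 0.168).

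Glycerophosphodiester phosphodiesterases return glycerol-3-phosphate from deacylated phospholipids. GDPD3 (Unigene0001994) had 17.8, 17.0 and 18.7 FPKM in September libraries and 5.86, 5.26 and 5.34 FPKM in August libraries, and rose by 1.70 (SE 0.0852, adjusted p = 1.70e-07). GDPD6 (Unigene0022300) rose by 0.53 (adjusted p = 0.00423), and GDPD1 (Unigene0002704), at 1.14 to 1.85 FPKM in September and 2.48 to 3.00 FPKM in August, fell by 0.93 (adjusted p = 0.00927). Against these rises, the only tested unigene placed as a lysophospholipase (Unigene0068165) had 82.2, 87.2 and 81.8 FPKM in September libraries and 130, 133 and 131 FPKM in August libraries. It fell by 0.64 (SE 0.0532, adjusted p = 4.04e-06).

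**Figure D5:**
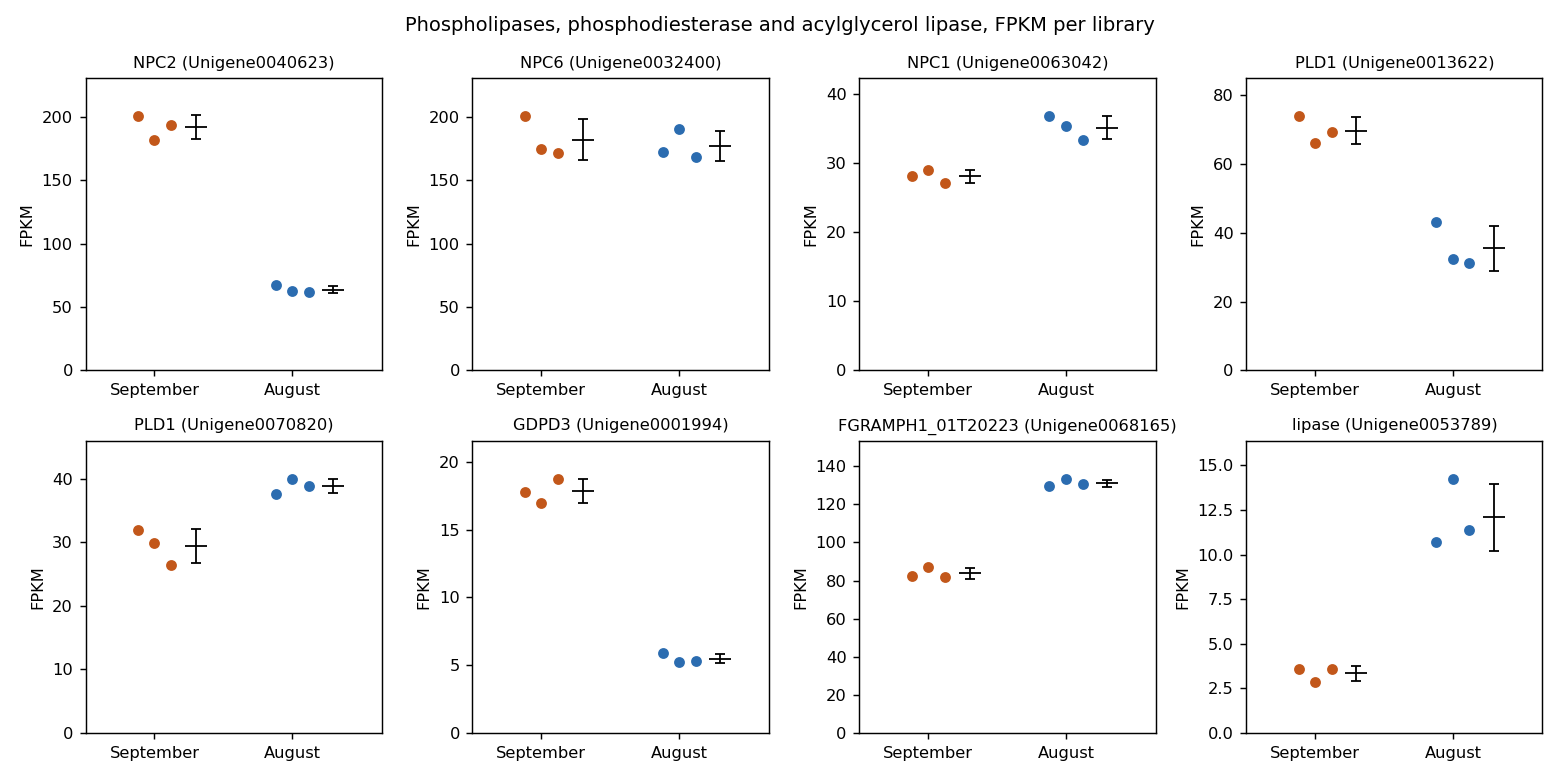
FPKM per library of 7 phospholipases and phosphodiesterases and of an acylglycerol lipase. Points are libraries, orange for September and blue for August, with the mean and SD beside them (n = 3 each). NPC2 lies at 182 to 200.4 in September and 61.6 to 67.0 in August, NPC6 overlaps between months, and the lysophospholipase Unigene0068165 and the lipase Unigene0053789 lie lower in September.

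Acylglycerol lipases, which take fatty acids off storage lipid, had 2 tested members. A monoacylglycerol lipase (Unigene0053789, no symbol) had 3.56, 2.85 and 3.60 FPKM in September libraries and 10.7, 14.2 and 11.4 FPKM in August libraries and fell by 1.86 (SE 0.152, adjusted p = 3.68e-06). CSE (Unigene0017094), placed by KEGG as a monoacylglycerol lipase and known in Arabidopsis as caffeoyl shikimate esterase of lignin synthesis, had a log2 fold change of -0.34 that did not pass (adjusted p = 0.0541). It passed as lower without the second August library (-0.44, adjusted p = 0.0280). Of the 3 other tested members none passed. The most abundant, a CDP-alcohol diphosphatase (Os07g0688000, Unigene0018805), had 8.58, 9.29 and 7.35 FPKM in September libraries and 7.17, 6.69 and 6.75 FPKM in August libraries (0.30, adjusted p = 0.0602), and it passed as higher without the third September library (0.39, adjusted p = 0.0327).

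Unigenes outside the members that carry the symbol of an oil gene or name one in their description numbered 40, of which 28 were tested, 11 rose, 10 fell and 7 did not pass. Without the symbols OLE1, OLE9, FUS3 and CPT2, which can name unrelated proteins and were left out after their values were seen, 31 unigenes remained, of which 24 were tested, 8 rose, 9 fell and 7 did not pass. Both sets lay near the shares of all tested unigenes, of which 35.4% rose and 32.5% fell. SDP1 (Unigene0014646), named for the lipase that starts oil breakdown in Arabidopsis seedlings, averaged 9.34 ± 0.221 FPKM in September and 24.4 ± 2.43 FPKM in August (SD, n = 3 each), and fell by 1.38 (SE 0.0830, adjusted p = 5.11e-07). A further caleosin under the symbol SOP1 (Unigene0005403) fell by 1.46 (11.4 ± 0.830 FPKM in September and 31.5 ± 0.999 FPKM in August, adjusted p = 2.31e-07). Other caleosin or peroxygenase symbols differed. PXG1 (Unigene0006498) fell (-1.12, adjusted p = 3.735e-05) and PXG3 (Unigene0055840) rose (0.70, adjusted p = 0.0338). The more abundant CLO (Unigene0011383) did not pass (-0.10, adjusted p = 0.153). PUX10 (Unigene0054112), which draws oleosins from oil bodies for degradation in Arabidopsis, fell by 0.73 (adjusted p = 5.92e-06). Among regulators of seed oil and maturation, WRI1 (Unigene0005618) rose by 0.82 (adjusted p = 0.0209) and VP1 (Unigene0069436) by 0.90 (adjusted p = 8.11e-07), while ABI3 (Unigene0018349) had -0.46 and did not pass (adjusted p = 0.153). HSD5 Unigene0054997, a steroleosin-type unigene, had 107, 148 and 124 FPKM in September libraries and 98.3, 107 and 87.9 FPKM in August libraries and rose by 0.38 (adjusted p = 0.0123). Wax ester and diacylglycerol acyltransferases named WSD1 counted 4 rises and 3 falls among 9 tested unigenes. Symbols of this kind can mislead: a unigene called OLE1 has an acyl-CoA desaturase as its best hit, and one called FUS3 a glutathione S-transferase.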

How the data were processed

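RNA of 3 September and 3 August kernel libraries was sequenced. Per the submitters' processing notes, fastp and RSEM were used. The sources used here do not give tool versions, the assembler, the annotation programs or strandedness. Per the file headers, the authors deposited estimated counts, which are not normalized, and FPKM, scaled to length and library size, for each unigene. Unigenes may be fragments of a gene, near-identical copies may share reads, and sense and antisense transcripts cannot be told apart. Gene symbols mark resemblance only.

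Estimated counts were rounded, which altered 8 of 390702 values. Levels are deposited FPKM. All 6 libraries were fitted in edgeR 4.0.16 (R 4.3.3) with TMM, filterByExpr by month (minimum count 10, minimum total 15), the quasi-likelihood test and a threshold of 0.05 after Benjamini-Hochberg adjustment. Standard errors are the log2 fold change divided by the root of F. The procedure was run on simulated data, in which a far smaller share of unigenes changed than the 67.8% called here. That run cannot show how the test behaves at such a share. Alternatives were DESeq2 1.42.0 size factors or its Wald test, no filter, the replicate number as a block, unigenes of the same best hit summed, limma 3.58.1 on log2(FPKM + 0.1), and leaving out each library.

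Members were placed in roles by KEGG enzyme or description. Named members are all oil body proteins, the most abundant and the most changed of each role, the 8 largest rises and 8 largest falls at a mean CPM of 5 or more, and the 5 most abundant. Others were named after their values were seen. Members, roles and lists were chosen with earlier results of these data known. Where a month had no counts, a floor of 3 counts over its libraries bounds the fold. Floors and the exact 95% intervals cover counting error only. Positions and sequences are not given, since no genome was used.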

Additional observations from a re-analysis of the deposited data

How the results depend on the processing

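Across the 12 alternatives the members higher in September numbered 21 to 29 and those lower 36 to 58, against 26 and 39, and each count stayed within 1.5 times. The 29 and the 36 came from summing same-hit unigenes, where 98 tested best hits were counted in place of unigenes. A best hit can also be carried by a unigene outside the members. With no filter 21 rose and 58 fell. Of 20 otherwise untested members that then passed, 19 were lower, and 14 of the 20 were counted only in the second August library. That setting also put the median log2 fold change of all unigenes at 0.33, against 0.03. Leaving out a library gave 21 to 24 members higher and 38 to 41 lower. Of 65 called members 56 kept their call under every alternative that keeps unigenes apart, and the 9 others lost it when a library was left out, as given beside each. Summing same-hit unigenes turned PLD1 Unigene0070820 to 0.51 (adjusted p = 0.000149), against -0.39 alone, LPAT5 Unigene0015647 to 0.09 (adjusted p = 0.316), against -0.58, LPAT2 Unigene0066445 to -0.65 (adjusted p = 1.18e-05), against 0.25, and DGAT2D Unigene0073039 to -0.21 (adjusted p = 0.0832), against 0.17. Directions that turned among members named by the rule were of values that passed in neither setting. SOP1 Unigene0069222 had -0.012 with no filter and -0.07 (without the third August library) to 0.052 with a library left out. OBAP1A, which shares its best hit with no other unigene, had 0.005 in the fit with same-hit unigenes summed. With a library left out it had -0.199 to 0.157, the positive values being 0.157 (the second August library) and 0.025 (the third September library). SFR2 Unigene0045855 had -0.021 with no filter and -0.063 to 0.072 with a library left out, negative without the first (-0.037) or second (-0.031) August or the second September library (-0.063). NPC6 had -0.028 to 0.092 with a library left out, negative without the third August (-0.022) or first September library (-0.028). The cause was not tested. In the fit with same-hit unigenes summed, the steroleosin (0.21, adjusted p = 0.0417) and Os07g0688000 (0.33, adjusted p = 0.0421) also passed as higher. Neither shares its best hit with another unigene, so nothing was summed for them and only the fit around them changed. Oleosin L passed as lower with no filter (-0.29, adjusted p = 0.0226).

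The months share replicate numbers, but the labels do not say that a number marks a shared tree or batch. Deviations of same-numbered libraries from their month correlated at 0.0924, 0.043 and 0.03, and those of different-numbered libraries at -0.0862 to 0.0426. With 3 libraries a month these values cannot settle whether the numbers mark pairs. The libraries were not treated as paired. With the replicate block 25 members were higher and 39 lower, Oleosin L passed as lower (-0.24, adjusted p = 0.0118), the steroleosin as higher (0.18, adjusted p = 0.0157), and 3 calls were lost.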
